A study of Arabidopsis thaliana with 27 samples.

Results

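The cysteine-rich receptor-like kinases (CRKs) were followed through the response of Arabidopsis thaliana Col-0 leaves to piercing and to caterpillar oral secretions (OS). The members were a list of 39 AGI gene codes annotated to the family, with no expression value in the rule, and 35 of the 39 were among the 18899 genes of the expression table. Leaves of five-week-old plants were pierced and received P. brassicae OS (PbOS), S. littoralis OS (SlOS) or water (W) on the holes, and discs around the wound were taken after 3 h or 24 h. The RNA-seq libraries numbered 27, with 4 each in PbOS_3h, SlOS_3h, PbOS_24h, SlOS_24h, W_24h and unwounded Control, and 3 in W_3h. Control leaves were taken at the 3 h time only and served as reference at both times, so that at 24 h a difference from Control also holds the difference in collection time. All plants were wild type, each sample pooled leaves of several plants, and the study's methods tie the replicate number to a batch of plants. The 3 W_3h samples carry the numbers 1, 2 and 3 in the labels. They were taken as batches 1, 3 and 4, as read from the study's overview plot. The authors' batch correction placed W_3h replicate 1 with batches 1 and 2, and W_3h replicates 2 and 3 with batches 3 and 4. The numbers within each pair of batches stay uncertain.

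CRKs are plant receptor kinases that span the plasma membrane. Their outer part carries DUF26 domains, each with a spaced set of cysteines, and their inner part is a serine/threonine kinase. Members of the family have been studied in pathogen resistance, responses to reactive oxygen species, abscisic acid signalling and cell death, and many of them lie side by side in the genome. What the outer domains bind is known for few of them.

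Of the 39 members, 35 lie on chromosome 4, and 19 of them form 1 array between AT4G23130 (CRK5) and AT4G23320 (CRK24), from 12117491 to 12191704 in TAIR10.1, all of which were in the expression table. A translation of the RefSeq coding sequences held the DUF26 signature, a cysteine followed by 8 residues, a cysteine, 2 residues and a cysteine, in 2 copies in 35 of the 39 members. CRK17 (AT4G23250), with 1001 residues, held 4 copies, CRK23 held 3, CRK24 held 1 and CRK45 (AT4G11890, also ARCK1), with 354 residues, held 0. Copies 3 and 4 of CRK17 lie at the same positions as copies 1 and 2 of CRK16, which its gene model overlaps. The stretches below encode the signature in members whose transcripts the results turn on, with the cysteine codons in capitals. CRK13 and CRK22 are shown together because their coding sequences were 80.2% identical while their transcripts moved in opposite directions.
CRK10, first copy, chr4:12138456-12138494, plus strand: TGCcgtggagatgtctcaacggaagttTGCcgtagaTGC
CRK13, first copy, chr4:12151146-12151184, minus strand: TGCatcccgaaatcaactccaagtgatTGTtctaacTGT
CRK22, first copy, chr4:12182236-12182274, plus strand: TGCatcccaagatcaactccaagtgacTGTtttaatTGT
CRK13, second copy, chr4:12150771-12150809, minus strand: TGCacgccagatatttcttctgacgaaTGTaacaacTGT
CRK22, second copy, chr4:12182611-12182649, plus strand: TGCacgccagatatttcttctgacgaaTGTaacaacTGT
CRK21, first copy, chr4:12180535-12180573, minus strand: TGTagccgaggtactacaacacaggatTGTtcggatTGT
CRK28, first copy, chr4:11401404-11401442, minus strand: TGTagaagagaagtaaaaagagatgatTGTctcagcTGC
The second copies of CRK13 and CRK22 had the same 39 bases. CRK45, which rose, held no copy, and the other members that rose and those that fell carried the motif, as nearly all listed members did.

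Levels are given in CPM (reads of a gene scaled to a common library size), computed from the deposited log2 values, which the authors had corrected for batch, and reads on genes ranged from 22.48 to 31.34 M per library. In Control leaves the members differed widely in level. Per kilobase of exon, CRK4 averaged 47.0 ± 39.8 CPM (SD, n = 4), CRK21 40.6 ± 16.4, CRK10 40.6 ± 9.40 and CRK19 33.4 ± 8.76, and neighbours in this order overlapped. CRK26 was the lowest at 0.145 CPM per kilobase. In 32 members at least 1 group mean reached 1 CPM. CRK20, CRK26 and CRK31 stayed below it in every group, at 0 to 32, 0 to 51 and 0 to 42 reads per library. CRK25, CRK30, CRK32 and CRK33 were absent from the table.

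**Figure D1:**
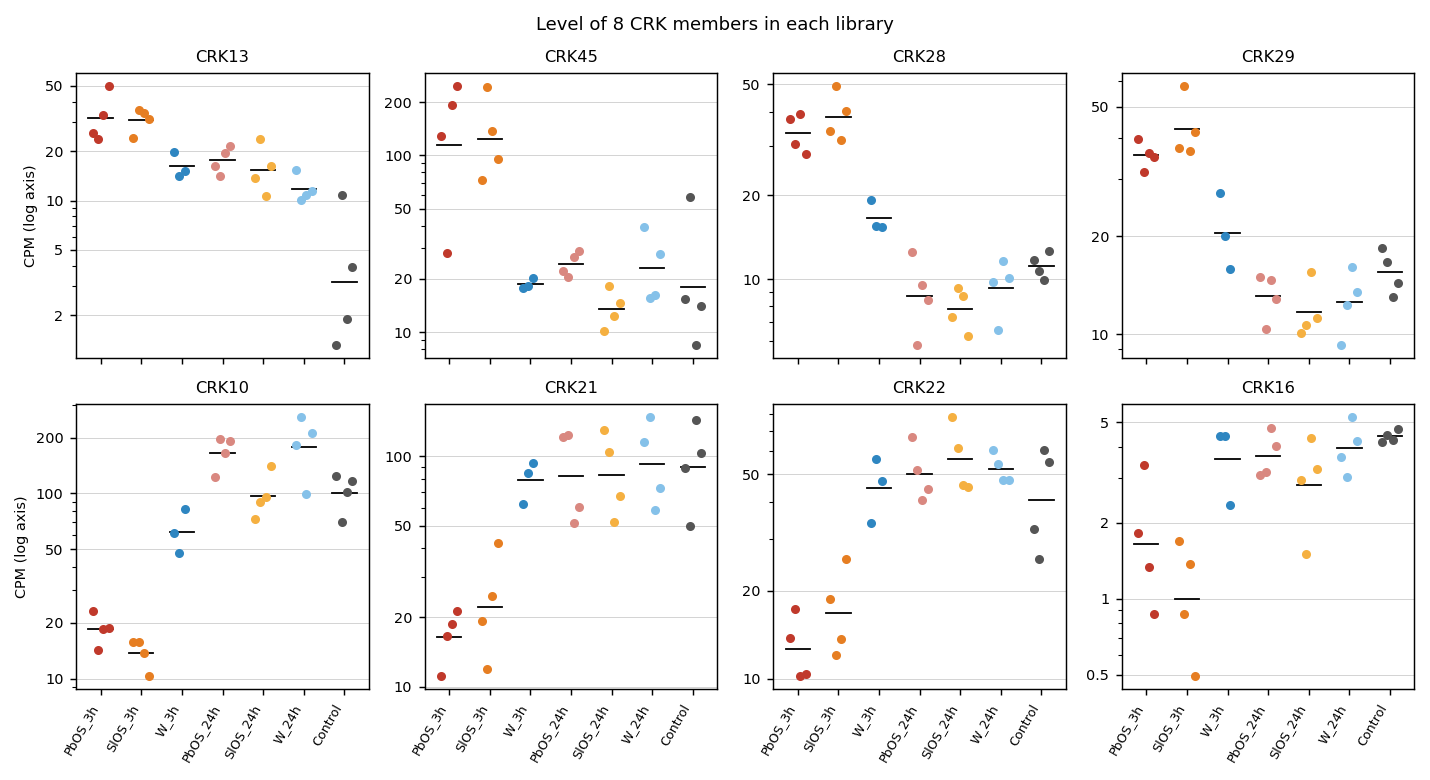
CPM (log axis) of 8 CRK members in every library, by group; dots are libraries and bars are geometric means. The bars of CRK13, CRK45, CRK28 and CRK29 are higher in PbOS_3h and SlOS_3h than in Control and those of CRK10, CRK21, CRK22 and CRK16 lower; 1 PbOS_3h library of CRK45, at 28 CPM, lies below the highest Control library, at 58 CPM.

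The first comparison asked which CRKs changed 3 h after OS relative to unwounded leaves. Members were called where the log2 change was larger than 1 in either direction with an adjusted p below 0.05. With PbOS, 7 of 35 members rose (20.0%, against 13.4% of all genes) and 6 fell (17.1%, against 14.4% of all genes). With SlOS, 7 rose (20.0%, against 14.6% of all genes) and 7 fell (20.0%, against 16.2% of all genes). These shares were near those of all genes, and the median member change was -0.36 with PbOS and 0.16 with SlOS. CRK11, CRK12, CRK13, CRK28, CRK29, CRK39 and CRK45 rose with both secretions, and CRK10, CRK16, CRK21, CRK22, CRK34 and CRK41 fell with both. CRK4 fell with SlOS only, although its difference between the secretions did not pass the test. Both comparisons used the same Control libraries. On the log2(CPM + 5) scale, which by construction shrinks the changes of genes at low level, 7 members in place of 13 were called with PbOS and 9 in place of 14 with SlOS. There CRK11, CRK12, CRK16, CRK34 and CRK39 lost both calls, CRK39 at 0.32 and 0.26, and CRK29 lost its call with PbOS at 0.98.

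**Figure D2:**
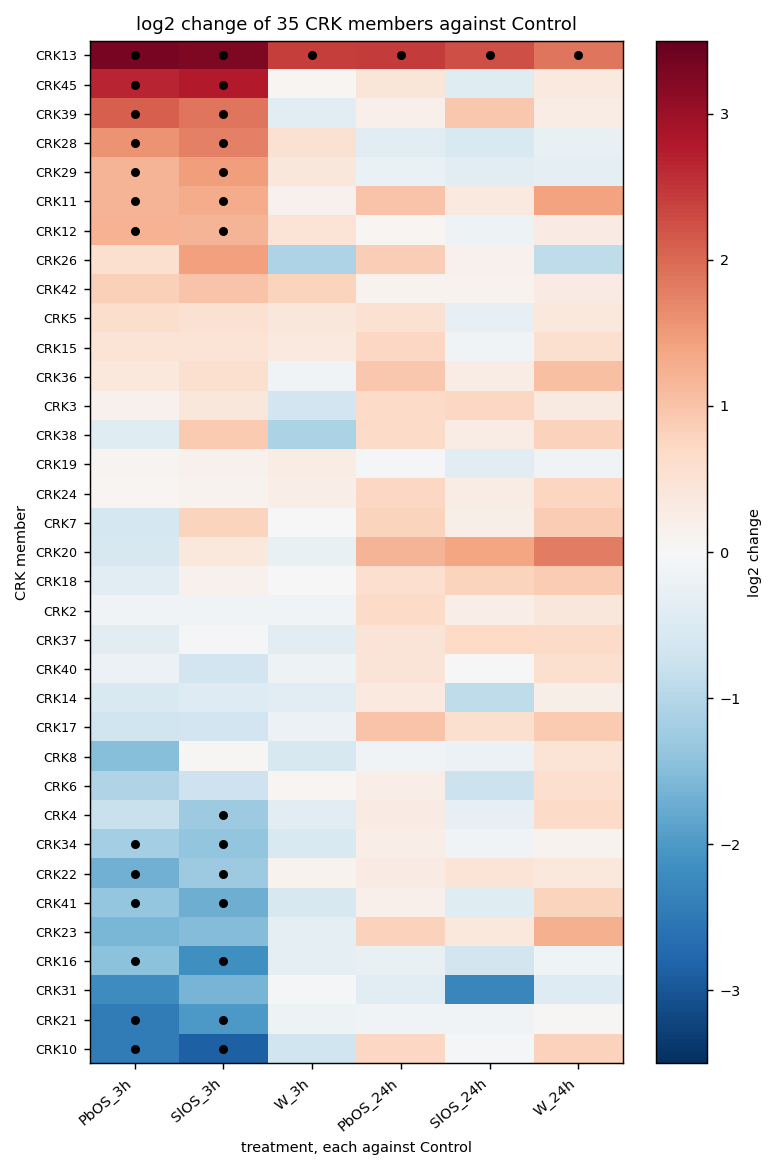
Log2 changes of the members against Control in each treated group, with black dots on the calls. Calls in both directions fill the PbOS_3h and SlOS_3h columns, and CRK13 is the only member called in the W_24h, PbOS_24h and SlOS_24h columns.

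CRK13, whose overexpression is known to raise salicylic acid-dependent defence against bacteria, rose in every treated group. It had 25.8, 23.8, 33.3 and 49.7 CPM in PbOS_3h and 24.1, 35.4, 34 and 31.2 CPM in SlOS_3h, against 1.31, 10.8, 1.89 and 3.95 CPM in Control. Neither PbOS_3h nor SlOS_3h overlapped with Control, in which replicate 2 was far above the other libraries. The log2 change was 3.31 ± 0.41 (SE; limma adjusted p = 3.9e-06) with PbOS and 3.27 ± 0.41 (adjusted p = 3.3e-06) with SlOS. Wounding with water also raised it, at 19.8, 14.2 and 15.1 CPM in W_3h, by 2.43 ± 0.45 (adjusted p = 0.0019), and this was the only member called in W_3h, where 3.71% of all genes rose and 0.434% fell. The fit on W_3h and Control alone did not call it (adjusted p = 0.057). Set against W_3h, the differences of 0.88 with PbOS and 0.84 with SlOS did not pass the test.

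CRK28 and CRK29 are neighbours with coding sequences 86.9% identical, and CRK28 is known to associate with the immune receptor complex of FLS2 and BAK1. CRK28 had 37.5, 30.6, 39.2 and 28.1 CPM in PbOS_3h and 34, 49.3, 31.7 and 40.3 CPM in SlOS_3h, against 11.7, 10.7, 9.96 and 12.6 CPM in Control. The change was 1.58 ± 0.21 with PbOS (adjusted p = 8.3e-06) and 1.77 with SlOS (adjusted p = 1.9e-06). All libraries of both secretions lay above all Control and W_3h libraries, which reached 19.3 CPM. CRK29 had 39.9, 31.6, 36 and 35.2 CPM in PbOS_3h and 37.4, 57.9, 36.7 and 42 CPM in SlOS_3h, against 18.4, 16.7, 13 and 14.4 CPM in Control, with changes of 1.20 (adjusted p = 0.0001) and 1.46 (adjusted p = 1e-05). Their annotated genes overlap by 470 bases on the same strand, and how reads in the overlap were counted is not given in the sources used here.

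CRK45, a kinase known from abscisic acid signalling and from disease resistance, differed widely between libraries of 1 group. It had 128, 28, 193 and 246 CPM in PbOS_3h and 72.4, 244, 137 and 95.9 CPM in SlOS_3h, against 15.5, 58, 8.42 and 14.1 CPM in Control. PbOS_3h replicate 2 lay below Control replicate 2, so PbOS_3h and Control overlapped, and SlOS_3h and Control did not. The change was 2.66 ± 0.60 (adjusted p = 0.0012) with PbOS and 2.77 (adjusted p = 0.00071) with SlOS, and without Control replicate 2 it was 3.31 and 3.43. In the fit on PbOS_3h and Control alone the call was lost (adjusted p = 0.099).

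CRK11, CRK12 and CRK39 rose less firmly. CRK11 had 4.52, 6.65, 12.7 and 13.2 CPM in PbOS_3h and 6.1, 17.9, 8.56 and 7.42 CPM in SlOS_3h, against 2.52, 2.97, 5 and 4.86 CPM in Control (log2 change 1.20, adjusted p = 0.022, and 1.31, adjusted p = 0.012). CRK12 had 9.13, 13.1, 33.5 and 31.4 CPM in PbOS_3h and 9.31, 17.1, 25.3 and 28.4 CPM in SlOS_3h, against 6.28, 9.59, 6.75 and 10.3 CPM in Control (1.23, adjusted p = 0.044, and 1.19, adjusted p = 0.047). CRK39 had 1.82, 1.07, 4.58 and 2.21 CPM in PbOS_3h and 0.987, 2.96, 3.47 and 1.09 CPM in SlOS_3h, against 0.218, 2.98, 0.215 and 0.431 CPM in Control (2.09, adjusted p = 0.023, and 1.88, adjusted p = 0.037). Each of these calls was lost on leaving out any 1 of several libraries. CRK11 lost its call without Control replicate 2 or PbOS_3h replicate 3 or 4, and with SlOS without Control replicate 2 or SlOS_3h replicate 2 (adjusted p up to 0.1 and 0.057). CRK12 lost it without Control replicate 1, 2 or 3 or PbOS_3h replicate 3 or 4, and with SlOS without the same Control libraries or SlOS_3h replicate 2, 3 or 4 (up to 0.17 and 0.15). CRK39 lost it without Control replicate 1 or 3 or PbOS_3h replicate 1, 3 or 4, and with SlOS without Control replicate 1, 3 or 4 or SlOS_3h replicate 1, 2 or 3 (up to 0.11 and 0.16).

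Among members that fell, CRK10 had the smallest adjusted p with both secretions. A mutant form of CRK10 is known to cause dwarfing and altered xylem. It had 23.2, 14.3, 18.6 and 18.8 CPM in PbOS_3h and 15.8, 15.8, 13.8 and 10.3 CPM in SlOS_3h, against 124, 70, 102 and 116 CPM in Control. The change was -2.45 ± 0.27 (adjusted p = 1e-06) with PbOS and -2.87 (adjusted p = 1.2e-07) with SlOS. Within plant batches the PbOS_3h library was lower than its Control in 4 of 4, by -2.63 to -2.29. W_3h, at 60.8, 47.5 and 82.1 CPM, lay above all OS libraries, overlapped with Control and was not called against it.

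CRK21 and CRK22 are adjacent in the array. CRK21 had 11.1, 16.6, 18.7 and 21.4 CPM in PbOS_3h and 19.3, 12, 24.8 and 42.1 CPM in SlOS_3h, against 89.1, 49.7, 144 and 103 CPM in Control, with changes of -2.45 ± 0.43 (adjusted p = 0.00014) and -2.02 (adjusted p = 0.00069). CRK22 had 13.8, 17.3, 10.2 and 10.4 CPM in PbOS_3h and 18.8, 12.1, 13.7 and 25.7 CPM in SlOS_3h, against 32.4, 25.7, 60.5 and 54.9 CPM in Control, with changes of -1.69 ± 0.29 (adjusted p = 0.00011) and -1.28 (adjusted p = 0.0012). Neither gene's OS libraries overlapped with Control for PbOS or SlOS, although the highest SlOS_3h library and the lowest Control library of CRK22 both rounded to 25.7 CPM.

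CRK16, CRK34 and CRK41 had lower mean levels in Control than CRK10, CRK21 and CRK22. Their changes were smaller with PbOS, but with SlOS all 3 changed more than CRK22. CRK16 had 1.83, 3.4, 1.34 and 0.873 CPM in PbOS_3h and 1.7, 0.87, 1.37 and 0.492 CPM in SlOS_3h, against 4.19, 4.47, 4.28 and 4.73 CPM in Control (-1.43, adjusted p = 0.0037, and -2.14, adjusted p = 9.7e-05). CRK34 had 4.93, 5.92, 1.94 and 3.16 CPM in PbOS_3h and 3.74, 2.83, 2.58 and 3.84 CPM in SlOS_3h, against 10.4, 7.36, 8.55 and 7.39 CPM in Control (-1.19, adjusted p = 0.0027, and -1.38, adjusted p = 0.00071). CRK41 had 5.74, 9.69, 13.8 and 18.4 CPM in PbOS_3h and 5.48, 7.88, 10.4 and 12.2 CPM in SlOS_3h, against 18.8, 20.9, 49.9 and 31.4 CPM in Control (-1.36, adjusted p = 0.035, and -1.70, adjusted p = 0.0096). The groups of all 3 members did not overlap with Control, as for 6 of 35 members below Control with each secretion (17.1%) against 20.0% of all genes with PbOS and 24.6% with SlOS. CRK41 lost its call with PbOS without Control replicate 3 or 4 or PbOS_3h replicate 1 or 2 (adjusted p up to 0.14), and CRK34 without PbOS_3h replicate 3, where the change was -0.90. CRK16 overlaps the gene of CRK17 by 1190 bases on the same strand, and how reads in the overlap were counted is not given in the sources used here.

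CRK4, whose overexpression is known to cause cell death, had 44.6, 41.7, 42 and 30.9 CPM in SlOS_3h, against 81, 270, 40.5 and 90.2 CPM in Control (-1.26 ± 0.46, adjusted p = 0.028). The call was lost without Control replicate 2 (-0.68, adjusted p = 0.16), SlOS_3h replicate 2 or SlOS_3h replicate 4. The groups overlapped, since Control replicate 3 lay below 3 of the SlOS_3h libraries.

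Leaf mesophyll transcripts moved with the same groups. The summed level of 3 mesophyll markers (RBCS1A, CAB1 and CA1, all called lower with both secretions) was 12500 to 22200 CPM in PbOS_3h and 6940 to 20100 CPM in SlOS_3h, against 35800 to 49400 CPM in Control. Fewer cells of a type and less RNA per cell cannot be told apart in these samples. The phloem marker SUC2 was not called, at 197 to 257 CPM in PbOS_3h and 192 to 242 CPM in SlOS_3h, against 210 to 296 CPM in Control, and the trichome marker GL2 was not called either. The guard cell markers MYB60 and KAT1 summed to 33.7 to 75.9 CPM in PbOS_3h and 48.8 to 67.2 CPM in SlOS_3h, against 26.2 to 32.0 CPM in Control, with no overlap, and KAT1 was called higher with SlOS. The root-abundant PYK10 was at 1.04 to 6.38 CPM in PbOS_3h and 0.666 to 2.25 CPM in SlOS_3h, against 0.0247 to 0.165 CPM in Control. The part of these shifts in the CRK changes was not tested.

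The second comparison set OS against wounding with water at the same time, which asks what the secretion added. At 3 h, 5 members were higher with PbOS than with water (14.3%, against 10.2% of all genes) and 3 lower (8.57%, against 13.5%), by adjusted p alone. With SlOS, 5 were higher (14.3%, against 13.4% of all genes) and 4 lower (11.4%, against 17.6%). Members higher with both were CRK3, CRK28, CRK29, CRK39 and CRK45, and members lower with both were CRK10, CRK21 and CRK22, with CRK16 also lower with SlOS (-1.81, adjusted p = 0.0028).

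**Figure D3:**
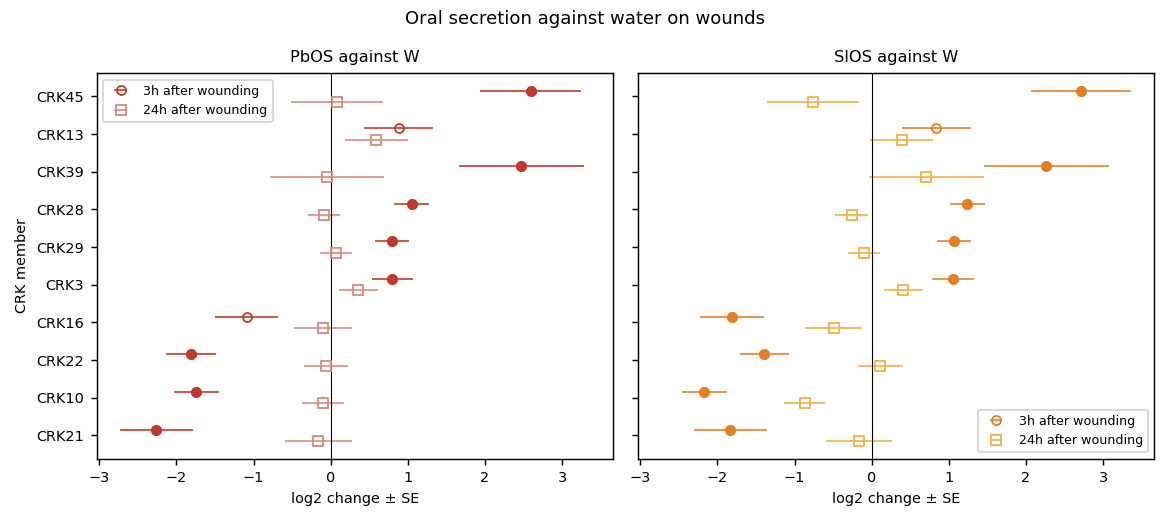
Log2 change against W at the same time (horizontal axis, ± SE) of 10 members for PbOS (left) and SlOS (right), with circles for 3 h, squares for 24 h and filled symbols for calls. At 3 h CRK45, CRK39, CRK28, CRK29 and CRK3 are called above 0 and CRK10, CRK21 and CRK22 below 0 with both secretions, and no 24 h symbol is filled.

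CRK45 was at 17.8, 18.2 and 20.2 CPM in W_3h, and its difference from water was 2.59 with PbOS (adjusted p = 0.0087) and 2.71 with SlOS (adjusted p = 0.0045). CRK28 differed by 1.05 (adjusted p = 0.0039) and 1.24 (adjusted p = 0.00075), and CRK10 by -1.74 (adjusted p = 0.00069) and -2.17 (adjusted p = 7.7e-05). CRK21 differed by -2.26 and -1.83, and CRK22 by -1.81 and -1.39. For CRK10, CRK21, CRK22, CRK28 and CRK45, no omission of 1 library ended either call. CRK3 was not called against Control. It had 43.6, 31.7, 45.7 and 44.6 CPM in PbOS_3h and 40.3, 91.4, 34.4 and 44.2 CPM in SlOS_3h, against 23.4, 28 and 21.3 CPM in W_3h. With the W_3h numbers as labelled, the CRK3 call with PbOS was lost, and 11 members in place of 9 were called with SlOS. The CRK3 call with PbOS (0.80, adjusted p = 0.04) was also lost in 6 of the 7 fits that left out 1 library, all but that without PbOS_3h replicate 2. CRK29 lost its PbOS call without W_3h replicate 2 or 3, and without either of them 5 members in place of 8 were called with PbOS. CRK39 lost both calls in 6 of 7 such fits.

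Members of the AT4G23130 array did not move as a block. In each of PbOS_3h and SlOS_3h, 3 of its 19 members rose (15.8%) and 4 fell (21.1%), against 13.4% and 14.4% of all genes with PbOS and 14.6% and 16.2% with SlOS. CRK10, CRK11, CRK12 and CRK13 are consecutive, and CRK10 fell while the other 3 rose. CRK10 and CRK11 lie on opposite strands with annotated ends overlapping by 32 bases, and whether counting used strand is not given in the sources used here. CRK21 and CRK22, further along the array, both fell, with CRK20 beside them at a low level.

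**Figure D4:**
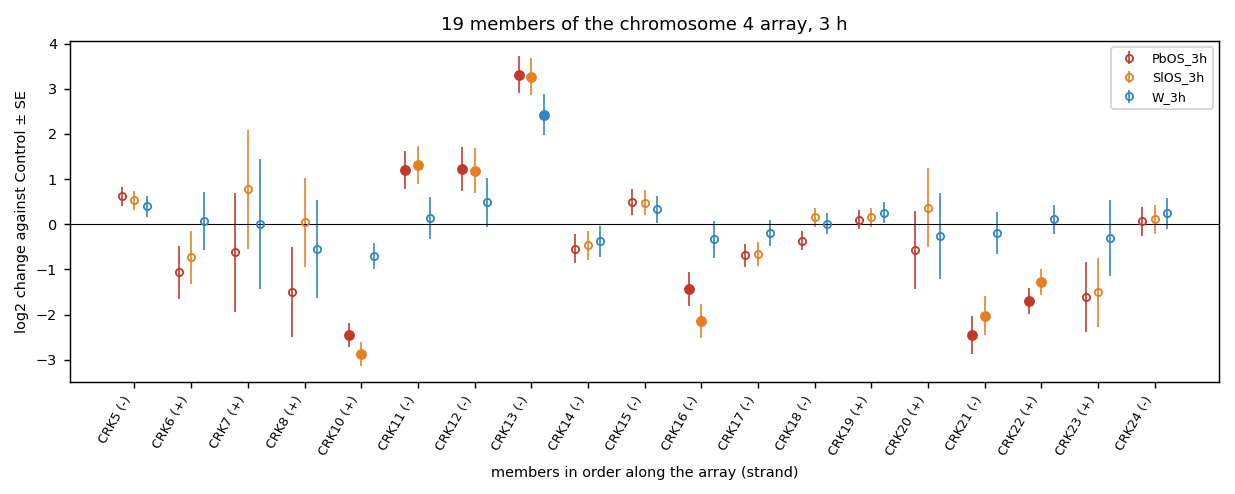
Log2 change against Control (± SE) at 3 h of the 19 members of the AT4G23130 array in gene order, with each gene's strand, for PbOS_3h, SlOS_3h and W_3h; filled dots are calls. CRK10 is called below 0 beside CRK11, CRK12 and CRK13 above 0, and CRK13 alone is called in W_3h.

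Closeness in sequence did not go with a shared direction in every pair. CRK13 rose and CRK22, its nearest relative by coding identity, fell. CRK39 and CRK40 were 87.1% identical, and CRK39 rose while CRK40, at 43, 42.1, 56.2 and 78.6 CPM in PbOS_3h and 30, 38.3, 52.4 and 35.4 CPM in SlOS_3h, against 49.8, 79.8, 57.1 and 61.6 CPM in Control, was not called. CRK28 and CRK29 rose together. The highest identity was 90.2%, between CRK19 and CRK20. How reads matching both genes of such a pair were counted is not given in the sources used here, so their levels are less certain.

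Promoter windows from 250 bases before to 50 bases after the annotated start were searched for the W-box, the site of WRKY factors, as TTGACC or TTGACT on either strand. It was found in 24 of 39 members (61.5%), against 6177 of 18832 promoters (32.8%) of genes in the expression table. The 39 include 4 members absent from that table. The G-box CACGTG was found in 9.0% of promoters and in CRK41 alone of the members. W-boxes did not follow direction. CRK11, CRK29 and CRK39 of the 7 members that rose held one, as did CRK4, CRK16, CRK34 and CRK41 of the 7 that fell with SlOS. Among these, the upstream windows of CRK29, CRK16 and CRK34 lie partly in annotated neighbouring genes. The 250 bases upstream of CRK11, with 4 W-boxes in capitals, and of CRK13, the member called in every group and without a match, are shown for contrast.
CRK11, chr4:12143859-12144108, minus strand: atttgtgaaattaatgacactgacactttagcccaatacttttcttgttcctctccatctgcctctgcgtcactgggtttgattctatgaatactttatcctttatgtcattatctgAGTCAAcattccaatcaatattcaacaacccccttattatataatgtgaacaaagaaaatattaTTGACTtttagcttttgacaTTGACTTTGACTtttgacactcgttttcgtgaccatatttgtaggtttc
CRK13, chr4:12151639-12151888, minus strand: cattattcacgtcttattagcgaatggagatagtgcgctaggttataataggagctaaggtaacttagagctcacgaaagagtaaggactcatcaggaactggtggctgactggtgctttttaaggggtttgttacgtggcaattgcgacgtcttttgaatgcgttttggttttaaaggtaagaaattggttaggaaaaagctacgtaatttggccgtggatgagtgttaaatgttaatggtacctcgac
These matches describe letters in the windows and not binding. Of 6 WRKY factors of defence, WRKY18, WRKY40 and WRKY60 rose with both secretions at 3 h, where 13.4% of all genes rose with PbOS and 14.6% with SlOS. WRKY40 rose by 5.27 with PbOS and 5.38 with SlOS. A link of these factors to the W-boxes was not tested.

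The same members were then followed at 24 h. Against Control, CRK13 was the only member called in PbOS_24h (2.46, adjusted p = 0.0015), SlOS_24h (2.26, adjusted p = 0.0026) and W_24h (1.87, adjusted p = 0.018), where 1.6%, 2.35% and 1.4% of all genes rose and 0.212%, 0.508% and 0.153% fell. Its levels were 16.3, 14.1, 19.5 and 21.6 CPM in PbOS_24h, 13.7, 23.6, 10.6 and 16.3 CPM in SlOS_24h and 15.3, 10.1, 10.8 and 11.4 CPM in W_24h. In fits on only the groups compared all 3 calls were lost (adjusted p = 0.29 in PbOS_24h, 0.15 in SlOS_24h and 0.46 in W_24h). The W_24h call was also lost on the log2(CPM + 5) scale, with voom, and without Control replicate 1 or 3 or W_24h replicate 1. SlOS_24h and W_24h overlapped with Control replicate 2, and PbOS_24h did not overlap with Control. The other 13 members called at 3 h with either secretion were not called at 24 h in any of the 3 groups.

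Levels at 24 h were compared with those at 3 h under the same treatment. With PbOS, 11 members were higher at 24 h (31.4%, against 23.3% of all genes) and 4 lower (11.4%, against 22.7%). With SlOS, 10 were higher (28.6%, against 25.3%) and 6 lower (17.1%, against 24.1%). CRK10 rose to 122, 197, 165 and 192 CPM in PbOS_24h, by 3.17 (adjusted p = 1.4e-07), and to 73.1, 90.2, 95.2 and 141 CPM in SlOS_24h, by 2.82 (adjusted p = 3.4e-07). The 6 members that had fallen with both secretions were all called higher at 24 h than at 3 h with both. Among them, CRK41 with both secretions and CRK16 with PbOS lost that call in 3 to 6 of the 8 fits that left out 1 library. The same 3 h libraries entered both comparisons, so a return is partly built into the choice of members called at 3 h. The share among all genes chosen this way was not computed. CRK28 fell to 12.5, 5.79, 9.58 and 8.42 CPM in PbOS_24h (-1.94) and to 7.31, 9.32, 8.74 and 6.27 CPM in SlOS_24h (-2.29), and CRK29 and CRK45 also fell with both. With water, CRK3, CRK10, CRK17 and CRK18 were higher at 24 h, 4 of 35 (11.4%, against 1.34% of all genes), and 0 were lower (against 3.05%). Of these, CRK10 alone kept its call when each library was left out in turn, and CRK3 also lost its call with the W_3h numbers as labelled. CRK17 had 58.6, 66.3, 56.1 and 65.4 CPM in PbOS_24h, 52.6, 45.6, 38.7 and 45.8 CPM in SlOS_24h and 67.1, 74.7, 38.1 and 60.2 CPM in W_24h, against 37.5, 22.3, 33.1 and 32.6 CPM in Control, with no overlap with Control in any of the 3. CRK18 had 82.6, 73.7, 83.3 and 82.9 CPM in PbOS_24h, against 44.7, 32.4, 58.7 and 34.4 CPM in PbOS_3h (0.96, adjusted p = 0.0011). It had 69.7, 113, 108 and 79.8 CPM in SlOS_24h, against 51.2, 87.4, 47 and 58.9 CPM in SlOS_3h (0.61, adjusted p = 0.022). The SlOS groups of CRK18 overlapped, and that call was lost in 4 of the 8 fits that left out 1 library (limma adjusted p up to 0.11).

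A few other members were called between times only. CRK2, which is known to phosphorylate the oxidase RBOHD, had 85.7, 68.7, 100 and 113 CPM in PbOS_24h, against 68.9, 39.1, 49.1 and 58.2 CPM in PbOS_3h (0.78, adjusted p = 0.0093). CRK23 had 3.01, 3.1, 6.44 and 2.03 CPM in PbOS_24h, against 0.792, 0.383, 2.54 and 0.196 CPM in PbOS_3h (2.41, adjusted p = 0.015), a call lost without PbOS_3h replicate 2 or 4. Its call with SlOS (1.89, adjusted p = 0.048) was lost in 7 of 8 fits that left out 1 library. CRK19, whose overexpression is known to cause cell death, had 45.8, 58.5, 80.7 and 83.5 CPM in SlOS_24h, against 97.9, 124, 78.6 and 86.5 CPM in SlOS_3h (-0.55, adjusted p = 0.035), a call lost without SlOS_3h replicate 1 or 2 or SlOS_24h replicate 1 or 2. In all of these the groups overlapped. CRK5 was called lower at 24 h than at 3 h with SlOS, without overlap, and lost the call only in the fit on these groups alone. CRK14 was called higher at 24 h than at 3 h with PbOS, without overlap, a call lost in 5 of 8 fits that left out 1 library. CRK40 was called higher at 24 h than at 3 h with SlOS, a call lost in 6 of 8 such fits.

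The difference between OS and water itself changed between times for a few members. For PbOS, CRK10 (1.64) and CRK22 (1.74) shifted upward from 3 h to 24 h and CRK28 (-1.14) downward, 2 and 1 of 35 against 2.59% and 1.95% of all genes. For SlOS, CRK10 (1.3) and CRK22 (1.5) shifted upward and CRK11, CRK28, CRK29 and CRK45 downward, by -2.25, -1.49, -1.16 and -3.47, 2 and 4 of 35 against 7.54% and 5.06% of all genes. In the 15 fits that left out 1 library, CRK28 and CRK45 with SlOS were called in all, and the other calls were lost in 2 to 12 of them.

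No member differed between PbOS and water at 24 h (0 of 35 by limma), where 0.0317% of all genes were higher and 0.0265% lower. An unadjusted p under 0.05 was reached by 0 members, against 3.71% of all genes. Between SlOS and water at 24 h, 0 members were called by limma (all genes, 0.243% higher and 0.153% lower). An unadjusted p under 0.05 was reached by 7 members, all lower with SlOS (20.0%, against 6.5% of all genes in either direction). Voom on the recovered reads also called 0 in both. CRK14 had 9.68, 11.6, 15.8 and 23.4 CPM in SlOS_24h, against 35.5, 34, 16.8 and 43.6 CPM in W_24h (-1.10 ± 0.32, adjusted p = 0.23). CRK5, known for a part in abscisic acid signalling and leaf senescence, had 20.7, 21.6, 33 and 31.9 CPM in SlOS_24h, against 46.4, 42.8, 30.5 and 51.6 CPM in W_24h (-0.68 ± 0.21, adjusted p = 0.31).

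PbOS and SlOS were compared directly at each time. No member was called at 3 h or 24 h (0.0% of all genes in each direction). An unadjusted p under 0.05 was reached by 1 member at 3 h (2.86%, against 4.3% of all genes) and 4 at 24 h (11.4%, against 3.8%). Among the 14 members called with either secretion at 3 h, the differences at 3 h lay between -0.43 and 0.72 with standard errors of 0.21 to 0.74. At 3 h, 11 of 35 members had a higher mean with PbOS than with SlOS (31.4%, against 50.6% of all genes), and at 24 h 27 of 35 did (77.1%, against 45.6% of all genes). At 24 h, 5 of 35 lay above SlOS without overlap (14.3%, against 1.87% of all genes), namely CRK5, CRK14, CRK17, CRK40 and CRK45. CRK5 differed by 0.82 ± 0.21 and CRK14 by 1.22 ± 0.32, with adjusted p = 1.0 for both.

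The members also varied between libraries of 1 group more than most genes did. The median SD over 32 members was 0.50 in PbOS_3h, 0.54 in SlOS_3h, 0.40 in W_3h and 0.50 in Control on the log2 scale, against 0.37, 0.31, 0.21 and 0.28 over all genes. Control replicate 2 was the highest of its group for 14 of 32 members and SlOS_3h replicate 2 for 20 of 32, and PbOS_3h replicate 2 was the lowest for 20 of 32. PR1, a marker of salicylic acid responses singled out after values were seen, was at 33.7, 0.194, 674 and 1.46 CPM in PbOS_3h, 0.281, 768, 389 and 4.48 CPM in SlOS_3h, 0.205, 26.0 and 0.707 CPM in W_3h, and 1.06, 382, 0.0405 and 1.11 CPM in Control. In at least 5 of the 7 groups, 9 of 35 members (25.7%) had their highest library where PR1 had its own, against 5.62% of all genes. These were CRK6, CRK7, CRK12, CRK23, CRK24, CRK36, CRK37, CRK38 and CRK39.

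**Figure D5:**
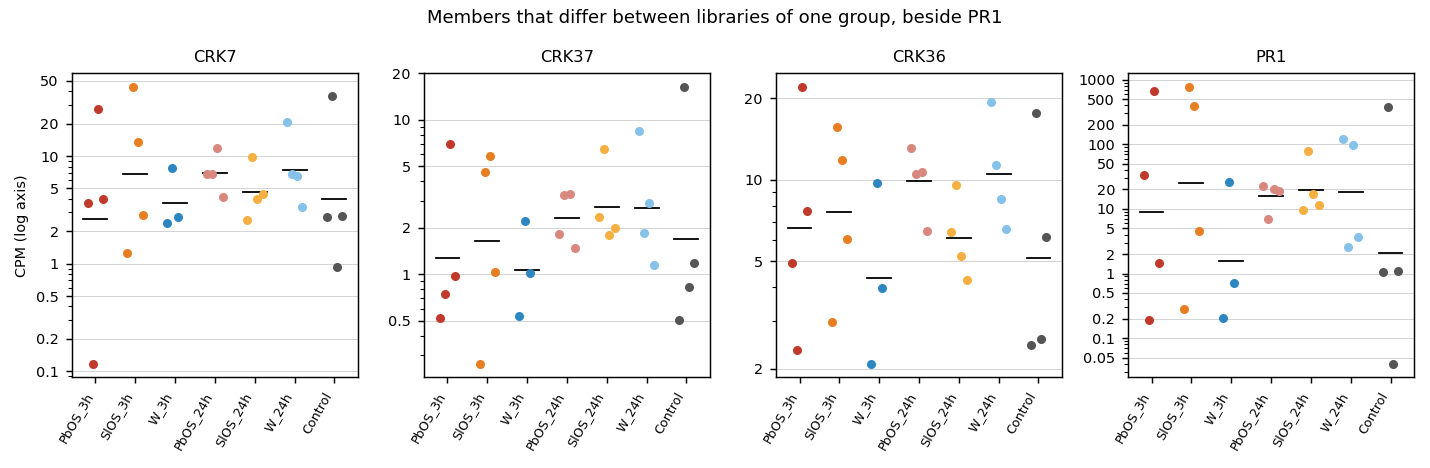
CPM (log axis) of CRK7, CRK37, CRK36 and PR1 in every library, by group; dots are libraries and bars are geometric means. Control replicate 2 and PbOS_3h replicate 3 are the highest dots of their groups in all 4 panels.

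CRK36, known to act with the cytosolic kinase BIK1, had 4.91, 2.35, 22 and 7.69 CPM in PbOS_3h and 2.98, 15.6, 11.8 and 6.02 CPM in SlOS_3h, against 2.45, 17.6, 2.58 and 6.16 CPM in Control. CRK7, studied for protection against extracellular oxidative stress, had 3.67, 0.118, 27.1 and 3.96 CPM in PbOS_3h and 1.27, 43.8, 13.6 and 2.85 CPM in SlOS_3h, against 2.73, 36.4, 0.934 and 2.78 CPM in Control. In both genes PbOS_3h replicate 3, SlOS_3h replicate 2 and Control replicate 2 were the highest of their groups, and neither gene was called in any comparison. CRK6, CRK8, CRK15, CRK24, CRK37, CRK38 and CRK42 were likewise at 1 CPM or more in some group and never called. Over the 27 libraries CRK6 ranged from 6.56 to 106 CPM, CRK8 from 0.0403 to 7.48 CPM, CRK15 from 6.93 to 24.7 CPM and CRK24 from 3.51 to 10.7 CPM. CRK37 ranged from 0.265 to 16.3 CPM, CRK38 from 0.037 to 3.41 CPM and CRK42 from 12.8 to 57.8 CPM.

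Related genes were counted in the same contrasts, in which 13.4% of all genes rose and 14.4% fell with PbOS and 14.6% rose and 16.2% fell with SlOS. Of 4 measured CRK genes outside the list, 0 were called at 3 h with either secretion by limma. An unadjusted p under 0.05 was reached by 0 of them with PbOS and 1 with SlOS, against 57.2% and 59.7% of all genes. Of 7 measured plasmodesmata-located proteins, which share the DUF26 domain but lack a kinase, PDLP1 rose with both secretions and PDLP2 and PDLP3 fell with both and PDLP7 with SlOS (-1.22), PDLP3 by -2.84 with PbOS and -3.37 with SlOS. Of 4 measured respiratory burst oxidases, 2 rose with each secretion. RBOHC (RHD2), an oxidase that makes reactive oxygen species, rose by 8.28 and 8.63 and AT1G19230 by 2.75 and 2.38, and RBOHD was not called (0.23 and -0.04). CRK2 itself was not called against Control. BIK1 rose by 1.36 and 1.5, FLS2 was at 0.02 and 0.06, and none of 3 wall-associated kinases was called. Of 11 salicylic acid genes, 2 rose with PbOS (EDS5 and SARD1), and 2 rose (EDS5 and BGL2) and EDS1 fell with SlOS.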

How the data were processed

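Messenger RNA of 27 leaf samples was sequenced by the study. Per the labels, the authors trimmed reads with cutadapt 2.5, aligned them with STAR 2.5.3a and counted them with HTSeq 0.9.1 on TAIR10; their table was filtered, TMM-normalised and deposited as log2 CPM per gene. The deposited values were batch-corrected, since the means of replicates 1 and 2 and of the other replicates were equal within 3.3e-09. A further deposited table of the authors' own fold changes was not used. Whole reads were recovered for 18899 of 18899 genes within 0.02 reads, and served depth (22.48 to 31.34 M reads on genes, median 29.27 M) and the voom alternative.

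All genes and 27 samples were fitted in 1 model of group means with limma 3.58.1 (R 4.3.3), with the replicate number as a block. The study's methods tie that number to a plant batch. W_3h, labelled 1 to 3, entered as batches 1, 3 and 4, read from the study's overview plot. Its numbers within each pair of batches are uncertain. Mean correlations of deviations between samples of the same number were -0.0709 to -0.0328, after the authors' correction. Between different numbers of the same pair of batches the mean was -0.1334, and between different pairs it was 0.0889. The Benjamini-Hochberg adjustment ran over every gene of a contrast. Calls against Control also needed a log2 change over 1. The fit was also run on simulated data, with independent normal noise around Control means and no batch effect. There, 173 of 200 changed genes were called correctly and 5 unchanged ones were called. These figures are not error rates of the calls in the real data. Sequences, gene positions and overlaps came from RefSeq TAIR10.1 (Biopython 1.88), whose nuclear chromosomes are those of TAIR10. The rule for members uses annotation alone, but members and lists were proposed with earlier results of these data known. Values per library are given for members called in at least 1 comparison, in most of the groups each call rests on. The other members are given by range, level and counts. Members singled out for following PR1 were chosen after values were seen. Alternatives were other blocks, pseudocount, filter, trend, voom, separate fits and leaving out each library. The block in 2 batches at each time was added after seeing the data.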

Additional observations from a re-analysis of the deposited data

Results flagged for a closer look

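Of 138 groups of 4 libraries over 23 members, 3 held a library far from the others, where chance gives about 1 in 20. CRK3 was at 31.7 CPM in PbOS_3h replicate 2, with the other libraries at 43.6 to 45.7 CPM. CRK4 was at 35.9 CPM in SlOS_24h replicate 1, with the others at 95.4 to 105 CPM. CRK18 was at 73.7 CPM in PbOS_24h replicate 2, with the others at 82.6 to 83.3 CPM.

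The difference between OS and water changed from 3 h to 24 h for 6 members, by the interaction in the limma fit over all genes. For PbOS it was 1.64 for CRK10 (adjusted p = 0.03), 1.74 for CRK22 (adjusted p = 0.033) and -1.14 for CRK28 (adjusted p = 0.045). For SlOS it was 1.3 for CRK10 (adjusted p = 0.04), 1.5 for CRK22 (adjusted p = 0.031), -2.25 for CRK11 (adjusted p = 0.025), -1.49 for CRK28 (adjusted p = 0.0082), -1.16 for CRK29 (adjusted p = 0.021) and -3.47 for CRK45 (adjusted p = 0.019).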

How the results depend on the processing

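No call changed its direction in any alternative. Of 92 member calls over 17 contrasts, leaving out 1 library kept 591 and ended 186 calls over all fits. With log2(CPM + 5), 7 members were called in PbOS_3h, 9 in SlOS_3h and 0 in W_24h against Control. Fits on only the groups compared called 0 in W_3h, W_24h, PbOS_24h and SlOS_24h against Control and 0 between W_24h and W_3h, but 14 for PbOS_3h and 15 for SlOS_3h against W_3h, and 5 for the PbOS interaction with time. Voom called 0 in W_24h against Control. Without the replicate block, 13 members were called in PbOS_3h and 15 in SlOS_3h against Control, 9 and 11 against W_3h, 6 between W_24h and W_3h, and 4 for the PbOS interaction. With W_3h numbered 1 to 3 as labelled, 11 were called in SlOS_3h against W_3h, 3 between W_24h and W_3h and 14 between SlOS_24h and SlOS_3h. That numbering differs from the grouping in the authors' batch correction. The replicate block in 2 batches at each time, chosen after seeing the data, called 2 in W_24h against Control and 1 in SlOS_24h against W_24h. It called 9 between W_24h and W_3h, and 6 and 10 for the PbOS and SlOS interactions. Against W_3h it called 12 in place of 8 for PbOS_3h and 13 in place of 9 for SlOS_3h. The cause of these moves was not tested.

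Leaving out 1 library gave 10 to 13 calls in PbOS_3h, 10 to 14 in SlOS_3h, 1 to 1 in W_3h, PbOS_24h and SlOS_24h, and 0 to 3 in W_24h against Control. It gave 5 to 12 for PbOS_3h and 8 to 9 for SlOS_3h against W_3h, 12 to 15 for both secretions between times, 1 to 2 between W_24h and W_3h, 0 to 7 for the PbOS and 2 to 6 for the SlOS interaction, and 0 to 0 elsewhere. The PbOS interaction count was 0 without W_3h replicate 2 or 3, PbOS_3h replicate 3 or 4, W_24h replicate 1 or 3 or PbOS_24h replicate 2 or 3. Members under 1 CPM were too low for a change to be read.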
